A study of Mus musculus with 19 samples.

Results

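The genes described here are 6 transcription factors that keratinocytes and squamous tumours use: Sox2, Pitx1, Trp63 (p63), Sox9, Klf4 and Klf5. They were taken by matching Ensembl identifiers to gene symbols, and all 6 were found among the 34807 genes of the count table and passed the filter on low counts that left 32031 genes. The factors were chosen by their measured levels in these libraries, above all the gap in Sox2 between Ivl and K5/K14 tumours, so the levels of Sox2 are a description here and carry no test. The other 5 factors and the gene lists were also chosen with results of these libraries known. Their p-values are therefore not those of a blind choice and are given to describe the size of a difference against its spread.

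RNA was sequenced from 15 squamous cell carcinomas of mice and from 4 normal skins, 1 library each, all labelled female. The tumours carry BRAFV600E, an oncogenic form of the kinase BRAF, which tamoxifen or 4-hydroxytamoxifen had turned on through the recombinase CreERT2 in mice aged 7 to 20 weeks per the labels. Cre was under the Ivl promoter in 6 tumours (Ivl:BRAFV600E), the Krt5 promoter in 5 (K5:BRAFV600E) and the Krt14 promoter in 4 (K14:BRAFV600E). Ivl encodes involucrin of differentiating keratinocytes, and Krt5 and Krt14 encode the keratins of the basal layer. The 4 normal skins were WT and came, per the study, from control littermates. The study describes Ivl mice with lesions at several sites, lips and paws included, and K5 and K14 mice with tumours on the back; the labels give no site for any tumour, so site and driver cannot be told apart. It also reports a much later tumour onset in Ivl mice, and tamoxifen for Ivl but 4-hydroxytamoxifen for K5 and K14 mice. Time since induction and inducer thus cannot be told apart from driver either. Nothing in the labels says that the libraries of a group came from separate animals, and p-values then measure only the spread between these samples.

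SOX2 is a factor of pluripotent cells and of oral and oesophageal epithelium, and in adult hairy skin it is known mainly from Merkel cells and dermal papillae. PITX1 is best known for giving hindlimb and jaw their identity. p63 keeps basal keratinocytes in place, SOX9 marks hair follicle stem cells and the outer root sheath, and KLF4 and KLF5 act in the differentiating and the basal layers of stratified epithelia.

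Totals lay between 45715309 and 72609771 counts per library. The authors had adjusted the counts for a sequencing batch, which left a trace in 4 libraries: averaged over Ivl tumours 1, 2 and 3 and K5 tumour 1, 96.58% of 13954 genes lay no more than 0.1 log2 from their average in the remaining 15 libraries, against 64.12% for the next such set of 4. The 6 factors shared this, with differences of the set of 4 from the other 15 between -0.02 (Sox9) and 0.12 (Sox2) on the log2 scale. Levels in these 4 tumours are thus tied to an average that includes skin, and results are also given for the other 15 libraries (3 Ivl, 8 K5/K14, 4 skin). Krt5 and Krt14, keratins that define the basal keratinocyte, were above skin in all 15 tumours, at 2805 CPM (a count divided by the TMM-scaled library size) or more for Krt5 and 5639 CPM or more for Krt14. Skin held up to 2181 CPM of Krt5 and 3881 CPM of Krt14. Ivl tumour 1 was the lowest tumour in both, and the other tumours held at least 5394 CPM of Krt5 and 23970 CPM of Krt14.

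Sox2 (ENSMUSG00000074637) is a single exon of 2057 bases on the plus strand of chromosome 3, chr3:34650405-34652461 in GRCm38, inside an intron of the noncoding gene Sox2ot. Pitx1 (ENSMUSG00000021506) is at chr13:55825051-55836192 on the minus strand, and 273 of its exonic bases also belong to another gene. Trp63 (ENSMUSG00000022510, chr16:25683763-25892102, plus strand) was counted as 1 gene, so its long and short N-terminal isoforms are not separated. Sox9 (ENSMUSG00000000567) is at chr11:112782224-112787760 on the plus strand, Klf4 (ENSMUSG00000003032) at chr4:55527143-55532466 on the minus strand and Klf5 (ENSMUSG00000005148) at chr14:99298691-99315036 on the plus strand.

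Promoter sequence was at hand for 2 of the 6 factors: Sox2, which of the 6 differed most between Ivl and K5/K14 tumours, and Klf4, the most abundant of the 6. The 250 bases before the RefSeq start are shown 5′ to 3′ on the gene's own strand (RefSeq, GRCm38.p6), chr3:34649745-34649994 for Sox2 and chr4:55532476-55532725 for Klf4. In both genes the RefSeq start lies upstream of the gene start given above, farther so for Sox2, where the counted gene starts at 34650405. Capitals mark matches on either strand to the motifs searched: the PITX core TAATCC, the SOX core ACAAT, the KLF core CACCC, the GC box GGGCGG, the CCAAT box and the TATA box with the letters TATAAA.
Sox2: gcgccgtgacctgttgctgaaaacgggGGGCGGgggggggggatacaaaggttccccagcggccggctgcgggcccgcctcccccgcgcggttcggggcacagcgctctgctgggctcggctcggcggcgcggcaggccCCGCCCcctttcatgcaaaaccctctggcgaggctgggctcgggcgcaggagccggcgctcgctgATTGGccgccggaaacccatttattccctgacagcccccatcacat
Klf4: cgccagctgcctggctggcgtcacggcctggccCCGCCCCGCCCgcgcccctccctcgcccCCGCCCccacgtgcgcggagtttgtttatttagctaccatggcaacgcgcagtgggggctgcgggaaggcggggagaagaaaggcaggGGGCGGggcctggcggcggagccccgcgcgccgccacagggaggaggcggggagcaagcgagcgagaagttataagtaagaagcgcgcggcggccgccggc

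Both windows were rich in G and C, 72.0% for Sox2 and 74.0% for Klf4, against a median of 52.4% over 32851 promoter windows of that length. The Sox2 window held 2 GC boxes and 1 inverted CCAAT box, and the Klf4 window held 4 GC boxes, of which 2 share a base. GC boxes were found in 32.7% of all windows and CCAAT in 33.8%. Neither window held the PITX, SOX or KLF core or the TATA box, which were found in 6.3%, 27.7%, 52.0% and 12.4% of all windows.

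Sox2 was high in the Ivl tumours and near 1 CPM or lower everywhere else. In Ivl tumours 1 to 6 it stood at 15.02, 2.84, 2.86, 31.2, 32.1 and 4.49 CPM. The K5 tumours held 0.127, 0.152, 0.722, 1.45 and 0.972 CPM, the K14 tumours 0.804, 0.922, 1.01 and 0.939 CPM, and normal skin 1.48, 1.43, 1.72 and 0.732 CPM. Every Ivl tumour lay above every other library, and the K5/K14 tumours and skin overlapped. These levels rest on 173 to 1573 counts in the Ivl tumours, 75 to 183 in skin and 6 to 62 in the K5/K14 tumours.

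The mean was 14.8 ± 13.9 CPM (SD, n = 6) in Ivl tumours, 0.788 ± 0.418 CPM (SD, n = 9) in K5/K14 tumours and 1.34 ± 0.423 CPM (SD, n = 4) in skin. The fitted log2 difference was 4.22 ± 0.59 (SE) between Ivl and K5/K14 tumours, 3.46 ± 0.80 between Ivl tumours and skin, and -0.76 ± 0.63 between K5/K14 tumours and skin. Within the 15 libraries the same differences were 4.69, 4.08 and -0.62. The Ivl tumours were not alike: tumours 1, 4 and 5 held 15.02 CPM or more and tumours 2, 3 and 6 held 4.49 CPM or less, an 11.3-fold range from lowest to highest. In K5 tumours 1, 2 and 3 Sox2 was lower than in any skin library.

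Marker genes of the other skin cells known to carry Sox2 gave these levels. The summed level of 11 Merkel cell genes was 10.1 to 21.6 CPM in Ivl tumours, 12.8 to 27.0 CPM in K5/K14 tumours and 11.5 to 18.9 CPM in skin, and 16 dermal papilla genes summed to 126 to 326, 189 to 339 and 147 to 346 CPM in the same order. The sums do not show single members: Crabp1, a dermal papilla gene, averaged 157 ± 36.4 CPM (SD, n = 9) in K5/K14, 45.7 ± 25.2 CPM (SD, n = 6) in Ivl tumours and 5.803 ± 2.18 CPM (SD, n = 4) in skin, while 12 of the 16 genes fell in K5/K14 tumours against skin, where 38.9% of all genes tested fell. The part of these cells in the level of Sox2 was not tested. Of the 12 Merkel cell genes listed, Atoh1 did not pass the filter on low counts and is not in the sum. Piezo2 averaged 14.1 ± 5.74 CPM (SD, n = 9) in K5/K14 tumours, 5.04 ± 2.67 CPM (SD, n = 6) in Ivl tumours and 5.17 ± 1.62 CPM (SD, n = 4) in skin. In K5/K14 tumours against skin 2 Merkel cell genes rose, Piezo2 included, and 5 fell. No gene of either list that passed the filter was at 0 in all libraries of a group. Sox2ot, whose intron holds Sox2, lay between 0 and 0.562 CPM in all libraries. In bulk tissue, fewer cells of a type and less RNA per cell cannot be told apart, which holds for every level given here.

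**Figure D1:**
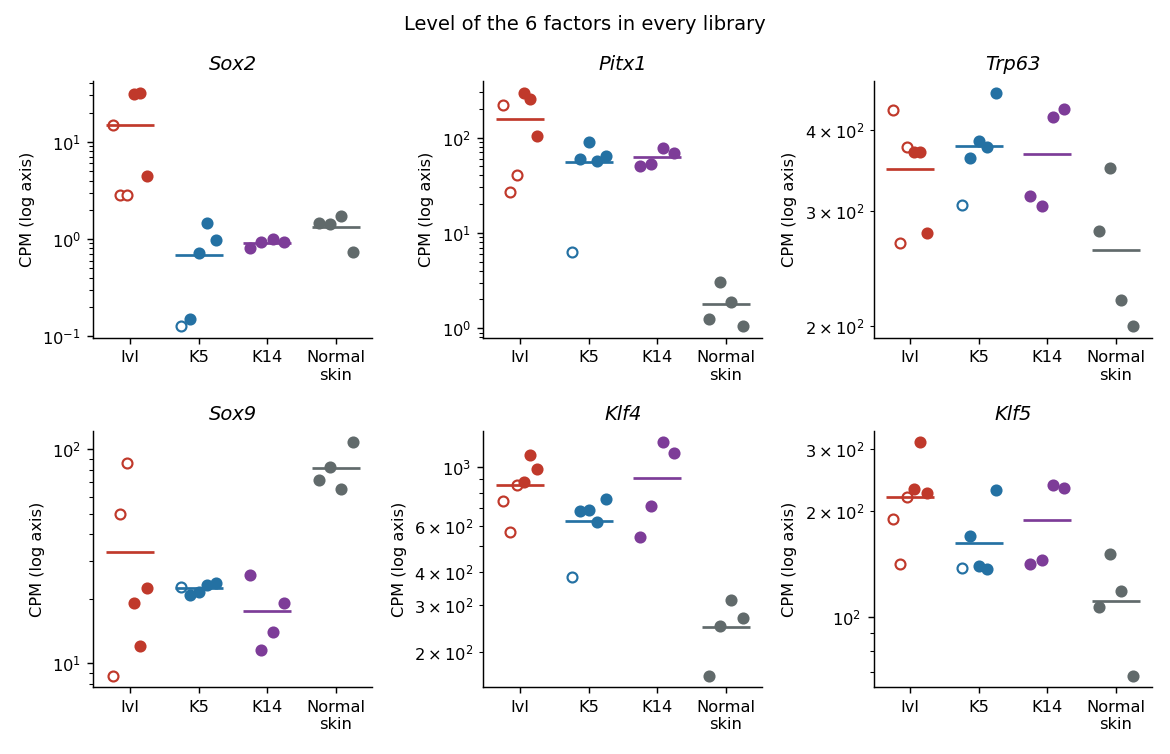
Level of each factor (CPM, log axis) in the 6 Ivl, 5 K5 and 4 K14 tumours and 4 normal skin samples, 1 point per library with the group mean as a line; open points are the 4 tumours tied together by the batch adjustment. Sox2 is high in the Ivl column alone, Pitx1 and Klf4 are above skin in every tumour, and Sox9 is below skin in all but Ivl tumour 3.

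Pitx1 was the factor that differed most between tumours and skin. It stood at 1.24, 3.06, 1.89 and 1.05 CPM in the 4 skin libraries. In Ivl tumours 1 to 6 it reached 218, 27.1, 41.0, 295, 255 and 104 CPM. It was 6.29, 59.5, 90.2, 56.1 and 64.3 CPM in K5 tumours and 50.5, 53.4, 78.5 and 69.0 CPM in K14 tumours. Tumours and skin did not overlap in either comparison.

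Against skin, Pitx1 rose 86.5-fold in Ivl tumours (log2 6.43 ± 0.84 SE, adjusted p = 2.31e-05 by edgeR's quasi-likelihood test with Benjamini-Hochberg adjustment over all genes). It rose 32.3-fold in K5/K14 tumours (log2 5.02 ± 0.77, edgeR adjusted p = 4.16e-05). Both increases passed the threshold in all 27 alternative analyses. Between Ivl and K5/K14 tumours the log2 difference was 1.42 ± 0.50, which did not pass after adjustment (edgeR adjusted p = 0.117, 95% interval 0.37 to 2.47). It was 1.74 ± 0.29 within the 15 libraries (adjusted p = 0.0201) and 2.19 ± 0.50 with the set of 4 as a covariate (adjusted p = 0.0376); over the 27 alternatives the adjusted p ran from 0.0201 to 0.294. Within the 15 libraries the call was lost without Ivl tumour 4 (log2 1.46, adjusted p = 0.123) or without Ivl tumour 5 (log2 1.62, adjusted p = 0.0954), and it held without any of the 13 others.

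The summed level of 10 genes of limb and tail position, counted without Pitx1, was 0.422 to 11.7 CPM in Ivl tumours, 0.756 to 10.1 CPM in K5/K14 tumours and 4.29 to 10.6 CPM in skin; their part in the level of Pitx1 was not tested.

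Trp63 was abundant in every library, and its difference from skin was small. In skin it stood at 279, 349, 219 and 200 CPM. In the Ivl tumours it lay between 268 and 428 CPM with a median of 370 CPM, and in the K5/K14 tumours between 305 and 456 CPM with a median of 376 CPM. The tumour and skin ranges overlapped. The log2 difference from skin was 0.51 ± 0.17 in K5/K14 tumours (edgeR adjusted p = 0.0123) and 0.41 ± 0.17 in Ivl tumours, where it did not pass (edgeR adjusted p = 0.07). Another scaling used 12 genes listed for keratinocyte adhesion (mostly desmosomal and junctional genes), on the assumption that they stand for the amount of keratinocyte RNA. With it the direction turned: Trp63 was then lower than in skin by log2 -0.50 in Ivl tumours (adjusted p = 0.0221) and -0.51 in K5/K14 tumours (adjusted p = 0.00883). Over the 27 alternatives the adjusted p ran from 0.022 to 0.216 and from 0.00339 to 0.0618. Between Ivl and K5/K14 tumours the difference was -0.10 ± 0.14, with a 95% interval from -0.40 to 0.20.

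The adhesion genes themselves rose: 9 of 12 in Ivl tumours and 10 of 12 in K5/K14 tumours, none fell, and their sum went from 4699 to 6611 CPM in skin to 6948 to 15640 CPM in Ivl tumours. That scaling also moved the median of all genes, from -0.46 to -1.35 in Ivl tumours and from -0.60 to -1.60 in K5/K14 tumours (log2, against skin). Of 22 genes known as p63 targets, 11 rose and 1 fell in Ivl tumours and 14 rose and 5 fell in K5/K14 tumours, with medians of 0.80 and 1.12 against those medians of all genes; with the adhesion scaling 3 rose and 10 fell, and 7 rose and 10 fell. Krt14 showed the largest increase (log2 3.34 ± 0.43 in Ivl and 3.74 ± 0.43 in K5/K14 tumours). Satb1, a chromatin organiser, fell in both (log2 -1.39 ± 0.51 and -2.18 ± 0.46). The p53-family relative Trp73 rose too, by 0.86 ± 0.27 and 0.96 ± 0.26, but not under the adhesion scaling. With TMM scaling, 20.4% of all genes tested rose and 15.5% fell in Ivl tumours, and 23.2% rose and 38.9% fell in K5/K14 tumours.

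Sox9 RNA was lower in bulk tumour than in bulk skin. It stood at 71.4, 82.8, 65.4 and 108 CPM in skin. The K5 tumours held 22.7, 20.9, 21.6, 23.1 and 23.8 CPM and the K14 tumours 25.8, 11.6, 14.0 and 19.2 CPM, all below skin. In Ivl tumours 1 to 6 it was 8.75, 49.8, 86.4, 19.1, 11.99 and 22.5 CPM. Only Ivl tumour 3 reached the range of skin, and it and Ivl tumour 2 are in the set of 4. By protein staining, the study reports SOX9 mainly in hair follicles of normal skin and in the basal layer of tumours of all models. Bulk RNA does not show which cells hold Sox9, so these levels do not describe tumour keratinocytes alone.

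In K5/K14 tumours Sox9 fell by log2 2.01 ± 0.41 (edgeR adjusted p = 0.000477), a call that held in all 27 alternatives. In Ivl tumours the log2 difference was -1.31 ± 0.45 (edgeR adjusted p = 0.0325), and it was -2.19 ± 0.29 within the 15 libraries (adjusted p = 1.44e-05). Leaving out Ivl tumour 4, 5 or 6 or skin 2 or 4 ended the call, with adjusted p from 0.0606 to 0.0817 (from 1.44e-05 to 0.0899 over all alternatives). Ivl and K5/K14 tumours differed by 0.71 ± 0.37 (edgeR adjusted p = 0.285), and by -0.16 ± 0.24 within the 15 libraries. In the Ivl tumours hair follicle genes moved with Sox9: 21 of them summed to 331, 2089, 1708, 459, 255 and 902 CPM in Ivl tumours 1 to 6, highest in the 2 tumours with the most Sox9, and to 1314 to 3390 CPM in skin. In K5 tumours 1 to 5 the sum was 300.0, 286, 481, 497 and 222 CPM and in K14 tumours 1 to 4 it was 1696, 335, 243 and 267 CPM. K14 tumour 1 thus had a sum inside the range of skin but held 25.8 CPM of Sox9, below every skin library. None of the 21 rose, 4 fell in Ivl and 16 fell in K5/K14 tumours (13 and 17 within the 15 libraries), and their part in the level of Sox9 was not tested. Of all genes tested in the 19 libraries, 15.5% fell in Ivl and 38.9% fell in K5/K14 tumours against skin.

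Klf4 was the most abundant of the 6 per base of transcript, with 281 ± 62.2 FPKM (TMM-scaled CPM per kilobase of exon; SD, n = 6) in Ivl tumours, 246 ± 88.6 FPKM (SD, n = 9) in K5/K14 tumours and 81.5 ± 20.8 FPKM (SD, n = 4) in skin. It stood at 162, 250, 313 and 269 CPM in skin. In Ivl tumours it lay between 565 and 1111 CPM with a median of 868 CPM, and in K5/K14 tumours between 382 and 1238 CPM with a median of 688 CPM. No tumour overlapped with skin. The increase was 3.45-fold in Ivl (log2 1.79 ± 0.29, edgeR adjusted p = 8.3e-05) and 3.02-fold in K5/K14 tumours (log2 1.59 ± 0.27, edgeR adjusted p = 9.09e-05). It stayed an increase under the adhesion scaling, at log2 0.86 and 0.52 (adjusted p = 0.00797 and 0.0497, the highest of the alternatives for each).

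Klf5 rose less. It was at 107, 151, 119 and 68.3 CPM in skin, between 142 and 313 CPM in Ivl tumours (median 222 CPM) and between 137 and 236 CPM in K5/K14 tumours (median 145 CPM). Skin 2 lay inside both tumour ranges. The log2 difference from skin was 0.98 ± 0.24 in Ivl (edgeR adjusted p = 0.0039) and 0.65 ± 0.23 in K5/K14 tumours (edgeR adjusted p = 0.0187). Under the adhesion scaling the values were 0.07 (adjusted p = 0.784) and -0.38 (adjusted p = 0.0965), so neither call held; the adjusted p over the alternatives ran from 0.000906 to 0.784 and from 0.00812 to 0.0965. The K5/K14 call was also lost without skin 4 (log2 0.46, adjusted p = 0.0811). Ivl and K5/K14 tumours differed by 0.19 ± 0.22 for Klf4 and 0.33 ± 0.19 for Klf5, with 95% intervals from -0.27 to 0.66 and from -0.07 to 0.74.

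**Figure D2:**
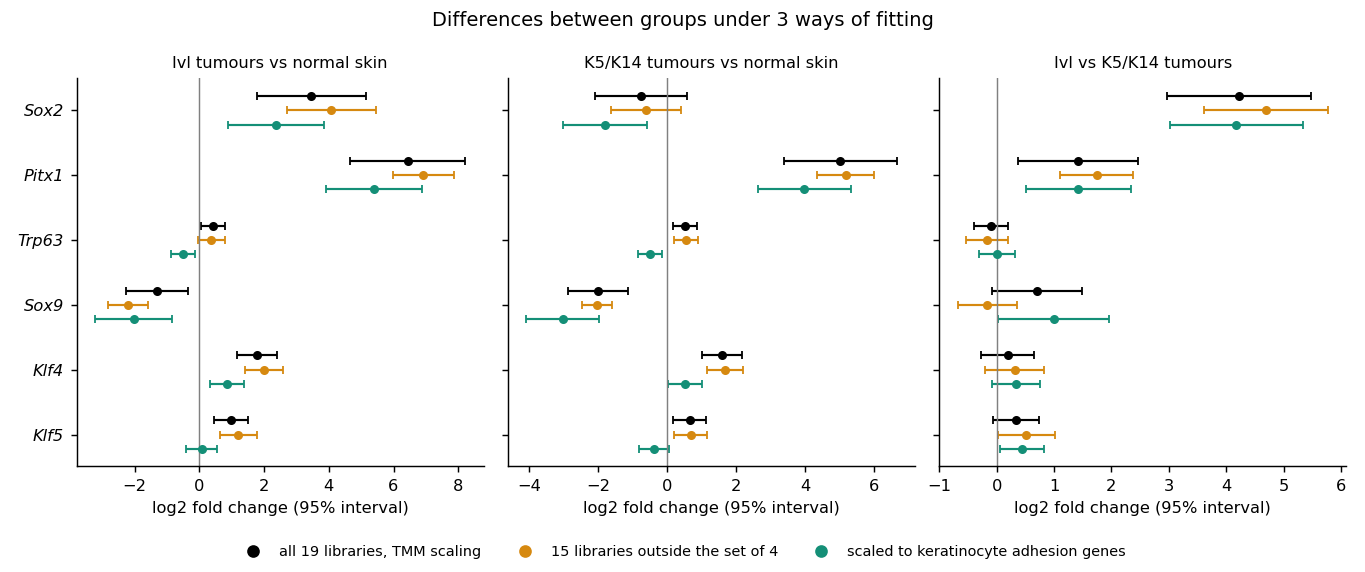
Log2 fold change of each factor (points) with its 95% interval (bars) in 3 comparisons, from all 19 libraries, from the 15 libraries outside the set of 4, and scaled to keratinocyte adhesion genes. Pitx1 stays far above 0 against skin in all 3, Sox9 stays below 0, and Trp63 moves from 0.41 to -0.50 in Ivl tumours and Klf5 from 0.98 to 0.07 when the scaling is changed; Sox2 is shown as a description.

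Of the 5 factors other than Sox2, 4 were called in Ivl tumours against skin (3 raised, 1 lowered), where 35.9% of all genes tested were called, 20.4% raised and 15.5% lowered. Raised genes made up 56.8% of those calls, 45.6% with DESeq2's size factors and 8.65% with the adhesion scaling. All 5 were called in K5/K14 tumours against skin (4 raised, 1 lowered), where 62.2% were called, 23.2% raised and 38.9% lowered. Groups did not overlap for 2 of the 5 in Ivl tumours and 3 of the 5 in K5/K14 tumours, against 22.2% and 41.4% of all genes. Between Ivl and K5/K14 tumours none of the 5 was called by edgeR or DESeq2 (Pitx1 alone had an unadjusted p under 0.05 by edgeR, 0.0102) and none was free of overlap, against 2.36% of genes called (1.77% raised, 0.593% lowered) and 0.656% free of overlap. Within the 15 libraries the called shares of all genes were 54.9%, 66.2% and 0.41% in the 3 comparisons. Between K5 and K14 tumours edgeR called none of the 5 and 0.0% of genes (0 genes, 1945 at an unadjusted p under 0.05), and DESeq2 called 173 genes. The largest log2 difference of the 5 was -0.53 for Klf4, with a 95% interval from -1.08 to 0.02.

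Per base of transcript, the order in Ivl tumours was Klf4, then Pitx1 (59.0 ± 43.1 FPKM, SD, n = 6), Klf5 (42.2 ± 10.8) and Trp63 (41.5 ± 7.45), then Sox9 (8.002 ± 7.23) and Sox2 (7.17 ± 6.73). The libraries' ranges overlapped between Pitx1, Klf5 and Trp63 and between Sox9 and Sox2. Pitx1, at 10.2 FPKM or more, also overlapped with Sox9 (up to 20.9 FPKM) and Sox2 (up to 15.6 FPKM). In Ivl tumours 2 and 3, both in the set of 4, Sox9 was above Pitx1. In the Ivl tumours outside that set Pitx1 was at 39.3 FPKM or more and Sox9 at 5.44 FPKM or less. In K5/K14 tumours the order was Klf4, Trp63 (44.4 ± 6.62 FPKM, SD, n = 9), Klf5 (33.5 ± 8.61), Pitx1 (22.1 ± 8.80), Sox9 (4.91 ± 1.13) and Sox2 (0.383 ± 0.204); Trp63 overlapped with Klf5, Klf5 with Pitx1, and Pitx1 with Sox9 through K5 tumour 1 alone. In skin it was Klf4, Trp63 (31.2 ± 8.002 FPKM, SD, n = 4), Klf5 (21.4 ± 6.58), Sox9 (19.8 ± 4.50), Pitx1 (0.682 ± 0.341) and Sox2 (0.650 ± 0.206), where Trp63, Klf5 and Sox9 overlapped with their neighbours and Pitx1 with Sox2. By its mean, Pitx1 was near Sox2 in skin and above Trp63 in Ivl tumours, but the Ivl tumours differed. In Ivl tumours 1, 4 and 5 Pitx1 was at 82.2, 111.2 and 95.9 FPKM, against 51.0, 44.0 and 44.1 FPKM for Trp63. In tumours 2 and 3 Pitx1 was at 10.2 and 15.4 FPKM, below Trp63 at 32.0 and 44.9 FPKM. The batch adjustment tied the levels of these 2 tumours to an average that includes skin, and its part in this order was not tested. In tumour 6 the values were 39.3 and 33.0 FPKM.

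The relatives of the factors were counted as background. Of 14 other SOX genes, 2 rose and 1 fell in Ivl tumours against skin and 2 rose and 7 fell in K5/K14 tumours, with medians of -0.41 and -0.60. Over all genes tested, 20.4% rose and 15.5% fell in Ivl tumours and 23.2% rose and 38.9% fell in K5/K14 tumours, with medians of -0.46 and -0.60. Sox15, a SOX factor of keratinocytes and muscle precursors, was the highest SOX gene per base in tumours, at 42.4 ± 21.01 FPKM (SD, n = 6) in Ivl and 57.9 ± 13.7 FPKM (SD, n = 9) in K5/K14 tumours against 5.16 ± 2.04 FPKM (SD, n = 4) in skin. It rose by log2 3.04 ± 0.42 in Ivl (edgeR adjusted p = 2.67e-05) and by 3.49 ± 0.42 in K5/K14 tumours (edgeR adjusted p = 3.26e-06). Every tumour held more of it (8.65 CPM or more) than any skin library (6.72 CPM or less). Sox7, an endothelial SOX factor, rose by 2.01 ± 0.34 and 1.61 ± 0.32. Sox13 was the only other SOX gene called between Ivl and K5/K14 tumours (log2 1.14 ± 0.17, edgeR adjusted p = 0.00317).

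Of 15 other KLF genes, 5 rose and 1 fell in Ivl tumours and 5 rose and 4 fell in K5/K14 tumours against skin, with medians of 0.10 and 0.03. The shares and medians over all genes are those given above with the SOX genes. Klf10, which responds to TGF-beta, rose by 1.31 ± 0.19 and 1.51 ± 0.18, and Klf9, a glucocorticoid-responsive factor, fell (log2 -1.12 ± 0.42 and -2.02 ± 0.38). Klf17 was at 0 counts in all 4 skin libraries and at 0.220 CPM on average in Ivl tumours. With the adhesion scaling 1 rose and 9 fell, and 2 rose and 9 fell, so the direction of the family depends on the scaling while that of Klf4 does not. Of 23 further epidermal transcription factors, 12 rose and 1 fell in Ivl and 14 rose and 2 fell in K5/K14 tumours (medians 1.04 and 0.97), and with the adhesion scaling 4 rose and 9 fell, and 4 rose and 10 fell. Elf3 rose most (log2 3.45 ± 0.55 and 3.56 ± 0.54), followed by Ehf (2.87 ± 0.43 and 2.46 ± 0.41), both epithelial ETS factors, and Gata3 fell (log2 -1.03 ± 0.36 and -1.53 ± 0.32).

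Other lists describe the tissue around the factors. Keratinocyte differentiation genes rose as a group, 19 of 20 with 1 lowered both in Ivl and in K5/K14 tumours against skin (medians 2.60 and 2.80). Of 10 skeletal muscle genes, 10 fell in K5/K14 tumours, and none passed edgeR's test in Ivl tumours (median log2 -1.90), where 4 fell within the 15 libraries. Their sum ran from 5.21 to 4404 CPM in Ivl tumours, from 6.66 to 510 CPM in K5/K14 tumours and from 2450.0 to 7369 CPM in skin. Of 10 fibroblast genes 1 fell in each comparison with skin, and of 11 melanocyte and Schwann cell genes 2 fell in Ivl and 5 in K5/K14 tumours. Of the 11 Merkel cell genes 1 rose and 1 fell in Ivl tumours and 2 rose and 5 fell in K5/K14 tumours, and of the 16 dermal papilla genes 2 rose in Ivl tumours while 2 rose and 12 fell in K5/K14 tumours. Of all genes tested, 20.4% rose and 15.5% fell in Ivl tumours against skin, and 23.2% rose and 38.9% fell in K5/K14 tumours. The part of the tissues listed here in the levels of the 6 factors was not tested.

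**Figure D3:**
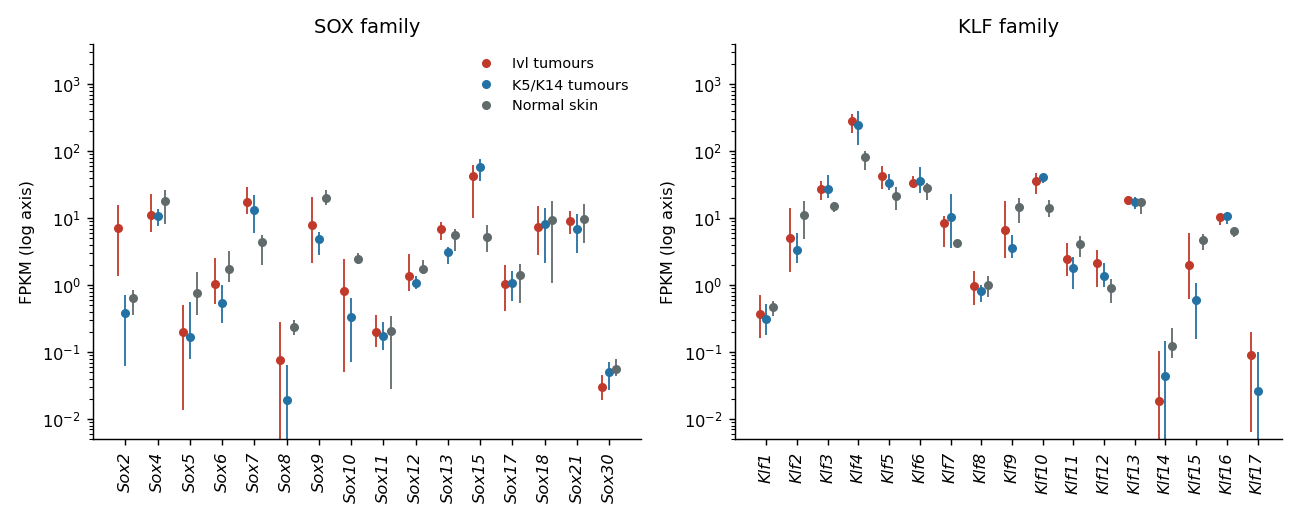
Level per base of transcript (FPKM, log axis) of the SOX genes (left) and KLF genes (right), with the group mean as a point and the lowest to highest library as a line, cut at 0.005 FPKM; means of 0 are not drawn. Sox2 is the SOX gene whose Ivl range lies clear above both others, Sox15 is highest in tumours, and Klf4 is the highest KLF gene in all 3 groups.

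Among the Ivl tumours Pitx1 was higher where Sox2 was higher. The 3 tumours with the most Sox2 (1, 4 and 5) held 218, 295 and 255 CPM of Pitx1, and the 3 with the least (2, 3 and 6) held 27.1, 41.0 and 104 CPM. Sox9 ran the other way, at 8.75, 19.1 and 11.99 CPM in the first 3 and 49.8, 86.4 and 22.5 CPM in the others. The same order was seen inside the set of 4 (tumour 1 against 2 and 3) and outside it (4 and 5 against 6). Marker sums split these tumours in the same way. Fibroblast genes summed to 1621, 1639 and 1862 CPM in tumours 1, 4 and 5 and to 4200.0, 11400.0 and 2867 CPM in tumours 2, 3 and 6. Keratinocyte adhesion genes summed to 14610.0, 15460.0 and 15640.0 CPM against 11990.0, 6948 and 11380.0 CPM, and hair follicle genes, given above, were lower in tumours 1, 4 and 5. The part of these tissues in the relation of Pitx1 and Sox9 with Sox2 was not tested.

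Across the 6 Ivl tumours Pearson's r of log2 CPM with Sox2 was 0.940 for Pitx1 (exact permutation p = 0.0208, adjusted p = 0.208 over 10 relations; Spearman's rho 0.943, exact p = 0.0167, adjusted p = 0.167). For Sox9 r was -0.798 (exact permutation p = 0.0639, adjusted p = 0.252; rho -0.771, exact p = 0.103, adjusted p = 0.246). Neither passed after adjustment. No tumour lay between 4.49 and 15.02 CPM of Sox2, so r describes mainly the step between 3 low and 3 high tumours. Without Ivl tumours 4 and 5, the farthest in Sox2, r was 0.926 for Pitx1 and -0.937 for Sox9 over 4 tumours. Among these only Ivl tumour 1 was high in Sox2, at 15.02 CPM, and the others held 4.49 CPM or less. These r thus describe mainly the step to Ivl tumour 1. All of these tumours but Ivl tumour 6 are also in the set of 4 tied together by the batch adjustment.

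For Trp63, Klf4 and Klf5 r with Sox2 was 0.586, 0.498 and 0.626 in the Ivl tumours (exact permutation p = 0.299, 0.333 and 0.179; adjusted p = 0.417, 0.417 and 0.358). The rho values were 0.371, 0.714 and 0.8286 (exact p = 0.497, 0.136 and 0.0583; adjusted p = 0.553, 0.246 and 0.246). Without tumours 4 and 5 these r were 0.647, 0.088 and 0.134, so those of Klf4 and Klf5 rest on these 2 tumours.

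In the 9 K5/K14 tumours, where Sox2 was low, r was 0.664 for Pitx1 (exact permutation p = 0.0757, adjusted p = 0.252; rho 0.333, exact p = 0.385, adjusted p = 0.551). It was -0.34 without K5 tumours 1 and 2, the farthest in Sox2, and 0.04 without K5 tumour 1 alone, so it rests on that tumour. For Trp63, Sox9, Klf4 and Klf5 r was 0.423, -0.207, 0.541 and 0.245 (exact permutation p = 0.242, 0.696, 0.117 and 0.528; adjusted p = 0.403, 0.696, 0.292 and 0.587). The rho values were 0.533, -0.033, 0.550 and 0.283 (exact p = 0.148, 0.948, 0.133 and 0.463; adjusted p = 0.246, 0.948, 0.246 and 0.553). None passed, and without K5 tumours 1 and 2 the r values were 0.190, 0.0009, 0.055 and 0.052.

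**Figure D4:**
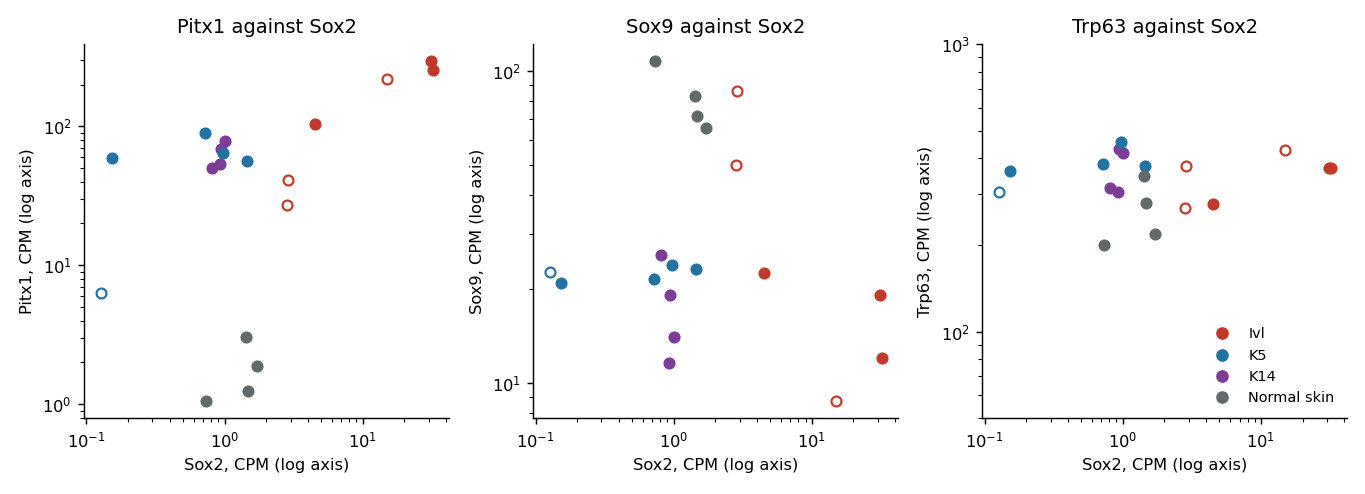
Level of Pitx1, Sox9 and Trp63 against Sox2 (CPM, both axes log) in all 19 libraries, 1 point per library coloured by group; open points are the 4 tumours tied together by the batch adjustment. Among the 6 Ivl tumours Pitx1 is higher and Sox9 lower where Sox2 is higher. Skin lies below every tumour in Pitx1 and above all but Ivl tumour 3 in Sox9, and Trp63 stays between 200 and 456 CPM throughout.

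Genes whose pattern was most like that of each factor were ranked by Pearson's r of log2 CPM over the 15 tumours among 14945 genes with a mean of at least 1 CPM. These r are descriptions over tumours that share groups and the batch adjustment. For Sox2 the top 5 were Cldn17 (r = 0.937), 4933439K11Rik (0.928), Grik3 (0.925), Cldn8 (0.917) and Ifi209 (0.917). Cldn17 and Cldn8 encode claudins of tight junctions. Cldn17 was at 47.0, 6.62, 3.05, 110.9, 54.1 and 30.7 CPM in Ivl tumours 1 to 6 and at 6.29 CPM or less in the K5/K14 tumours. Pitx1 had an r of 0.771 with Sox2 and was 108th in that list.

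For Pitx1 the top 5 were Sprr3 (r = 0.954), Gsto1 (0.922), Sptssb (0.920), Gm3776 (0.918) and Fam57a (0.901). Sprr3, a cornified envelope protein of mucosal epithelia, was at 0 in all 4 skin libraries and at 171, 9.01, 3.001, 258, 281 and 104 CPM in Ivl tumours 1 to 6, with the 3 highest values in tumours 1, 4 and 5 as for Pitx1. For Sox9 they were Prkd1, Plpp3, Anks6, Satb1 and Adgra3, with r from 0.951 to 0.960. For Trp63 they were F3, Tab2, Ehd4, Acbd3 and Spry2 (r from 0.822 to 0.856). Klf4 was most like AA986860, Nkpd1, Gm4202, Smap1 and Jund (0.868 to 0.925) and Klf5 most like Srsf1, Opa3, Smarca5, Ctcf and Gm4202 (0.890 to 0.927). Klf4 and Klf5 shared Gm4202 and had an r of 0.841 with each other.

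Of 13 genes of mucosal epithelium, 3 (Krt13, Krt4 and Krt76) were higher in Ivl than in K5/K14 tumours, none was lower and 10 were not called, with a median log2 difference of 0.45 against 0.11 over all genes, of which 1.77% were raised. Within the 15 libraries 5 were higher. Krt13, a keratin of oral and oesophageal epithelium, was at 985, 252, 79.9, 2446, 2592 and 281 CPM in Ivl tumours 1 to 6, at 11.96 ± 5.89 CPM (SD, n = 9) in K5/K14 tumours and at 0.748 ± 0.273 CPM (SD, n = 4) in skin. Krt13 was highest in the 3 tumours with the most Sox2, but Krt4 and Krt76 were not. Krt4, its usual partner, was at 17.5, 9.62, 4.15, 6.95, 82.0 and 30.3 CPM in Ivl tumours 1 to 6. Krt76, a keratin of the palate, was at 0.999, 0.673, 0.444, 1.55, 1.94 and 3.51 CPM, highest in tumour 6, where Sox2 was low. For Krt13 the log2 difference between Ivl and K5/K14 tumours was 6.53 ± 0.86 (edgeR adjusted p = 0.00187), for Krt4 it was 4.94 ± 0.73 (edgeR adjusted p = 0.00344) and for Krt76 3.0009 ± 0.62 (edgeR adjusted p = 0.0254). The study also reports more Krt4 and Krt13 RNA in Ivl tumours, but no substantial difference between models in protein staining for KRT4 and KRT13. Pax9, a factor of oral epithelium and pharynx, rose against skin in both (log2 5.73 ± 0.95 in Ivl, edgeR adjusted p = 0.00013, and 6.34 ± 0.97 in K5/K14 tumours, edgeR adjusted p = 3.37e-05), so not all mucosal genes were highest in Ivl tumours. Of 14 craniofacial position genes, 2 were higher in Ivl than in K5/K14 tumours and none within the 15 libraries; whether position on the body had a part in the levels of Sox2 and Pitx1 was not tested.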

How the data were processed

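Poly(A) libraries from 15 tumours and 4 skin samples were sequenced. Per the labels and the study's methods, the authors trimmed reads with Trim Galore, aligned them with HISAT2 2.1.0 to GRCm38, counted genes with featureCounts (Subread 1.6.3) and ran ComBat-seq against a batch effect of sequencing; the deposited values are therefore estimated counts, not scaled for depth. They were whole numbers, so rounding changed none. The test had been planned for unadjusted counts and was kept. The labels do not say which library was in which batch, and whether strand was used in counting is not given in the sources used here.

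Gene names, positions and exon lengths came from GENCODE mouse release 21 (GRCm38). Genes that reached 5 counts in any library were kept. After TMM scaling, edgeR 4.0.16 under R 4.3.3 was run (quasi-likelihood F test, two-sided, Benjamini-Hochberg over 32031 genes, threshold 0.05) in 1 fit of Ivl, K5/K14 and skin libraries. K5 and K14 were merged as in the study and compared in a fit of 4 groups. Intervals use 16 residual degrees of freedom, and log2 CPM a prior count of 2. FPKM is the TMM-scaled CPM divided by the length of merged exons. All errors leave out that of the batch adjustment. Correlations with Sox2 were tested by exact permutation over all 720 or 362880 pairings. No 2 libraries of a group agreed within sampling noise (37 pairs, smallest chi-square per degree of freedom 26.3).

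The 6 factors and the 16 gene lists were chosen with earlier results of these data known. Named in the text are the factors, up to 4 list genes per direction with the largest change among those called, the family member highest per base, and the 5 genes most like each factor; Which of these to print library by library (Cldn17, Sprr3, Krt13, Krt4, Krt76) was chosen after their values were seen, as were Gsto1 and Crabp1 to be named where they are. Alternatives were other size factors, filters and tools, the 15 libraries, the set of 4 as a covariate, a replicate block, a scaling to keratinocyte adhesion genes and each library left out. The result of 1 gene related to the factors is not reported here.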

Additional observations from a re-analysis of the deposited data

Results flagged for a closer look

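Pitx1 in K5 tumour 1, at 6.29 CPM, stood far from the other 8 K5/K14 tumours, which held 50.5 CPM or more; the gap to its nearest neighbour took up 0.782 of the group's range on the log2 scale (0.821 among the 5 K5 tumours). Chance marks about 1 in 20 groups in this way, and 30 groups of values were looked at. K5 tumour 1 is the only K5/K14 tumour in the set of 4 libraries that the batch adjustment tied together, and it also held the least Krt13 (0.0318 CPM), Sprr3 (0.0159 CPM) and Gsto1 (240 CPM) of the tumours. Whether the adjustment had a part in these values was not tested.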

How the results depend on the processing

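Against skin, Pitx1 and Klf4 kept their direction and call in all 27 alternatives, as did Sox9 in K5/K14 tumours. Scaled to keratinocyte adhesion genes, Trp63 turned to -0.50 in Ivl and -0.51 in K5/K14 tumours against skin and to 0.0106 between them, Klf5 went to 0.0703 and -0.38 against skin, and Sox2 in K5/K14 tumours against skin moved to -1.80. Within the 15 libraries Sox9 turned to -0.16 between Ivl and K5/K14 tumours, and Pitx1 passed there (1.74, and 2.19 with the set of 4 as a covariate), a value that ran from 1.46 to 2.08 with each of the 15 left out in turn, an alternative chosen after seeing the data. Between K5 and K14 tumours, where none of the 5 was called, Pitx1 turned to 0.10 within the 15 libraries. Replicate numbers did not pair the samples: the correlation of same-numbered deviations ran from -0.50 to 0.43, it was over 0.1 in 9 of 25 pairs, and the same-numbered sample was the best match in 9 of 50 cases. With a replicate block Sox9 in Ivl tumours against skin was -1.33 and lost its call (adjusted p = 0.0899), and Trp63 between K5 and K14 tumours turned to -0.0075.

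With each library left out in turn, the log2 difference of Trp63 ran from 0.28 to 0.57 in Ivl (passing without Ivl 2 or skin 2) and from 0.39 to 0.67 in K5/K14 tumours (lost without skin 3 or 4, adjusted p = 0.0547 and 0.0618), that of Sox9 in Ivl tumours from -1.87 to -1.11, that of Klf5 in K5/K14 tumours from 0.46 to 0.82, and those of Pitx1 and Trp63 between K5 and K14 tumours from -0.43 to 0.10 and from -0.0427 to 0.12. Counts of called genes between Ivl and K5/K14 tumours were 756 genes by edgeR, 2133 by DESeq2, 131 within the 15 libraries, 449 with the set of 4 as a covariate, 46 with the replicate block and 127 to 1328 with each library left out. Ivl tumours against skin gave 17566 calls within the 15 libraries and 20037 with the adhesion scaling against 11515, and K5 against K14 gave 17 within the 15 libraries and 173 by DESeq2 against 0. The causes were not tested.

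Relations with Sox2 passed in none of the alternatives. In K5/K14 tumours r of Pitx1 turned to -0.34 and that of Sox9 to 0.0009 without the 2 tumours farthest in Sox2, and relative to adhesion genes r of Trp63 turned to -0.0104 in Ivl tumours and that of Klf5 to -0.0054 in K5/K14 tumours. Only 3 Ivl tumours lie outside the set of 4, so no r was computed there. Sox2 in K5/K14 tumours rests on 6 to 62 counts, which limits its precision.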
